A study of Mus musculus with 6 samples.

Results

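The genes described here are 45 mouse genes that type I interferon switches on and that act against viruses as effectors or sensors. IRFs, STATs and interferon-induced GTPases other than Mx1 and Mx2 were left out. The 45 were taken by symbol from a list of such genes, and they are 45 of the 23420 genes in the deposited count files. The list was chosen with earlier results of these data known. Shares of members set beside shares of all genes are therefore descriptions and not independent tests. Under their own symbols 44 were found, and Ifit3b was found under its older symbol, I830012O16Rik, through the RefSeq synonyms. All 45 had 10 or more counts in 3 or more libraries, the condition for testing, which 12713 genes met.

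RNA was sequenced from LSK cells of the bone marrow of 6 mice, 1 library per mouse. LSK cells lack the markers of mature blood lineages and carry Sca-1 and c-Kit, and they hold the stem cells and multipotent progenitors of blood. Of the mice, 3 were bcat(ex3)osb animals (mutant mice below), in which β-catenin signalling is constitutively active in osteoblasts, the cells that form bone, and 3 were their WT littermates. The sources used here do not give the promoter that limits the allele to osteoblasts, the ages or the number of cells sorted, and the labels name no treatment. The comparison asks how the transcripts of blood progenitors differ when the bone niche carries that signal.

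Total counts were between 15431235 and 19956774 per library, and in a principal component analysis mutant mouse 2 lay far from the other 5 mice on the leading axis (50.3% of the variance). The counts of Xist and of Y-linked genes mark mutant mice 1 and 2 as male and the other 4 mice as female. The progenitor markers Kit (323 to 1002 CPM over the 6 mice), Flt3 (747 to 1231) and Cd34 (957 to 1281) were present in every library. The T cell marker Cd3e was at or below 0.665 CPM in every library. Of the same list of T and NK cell markers, Cd3d, Cd3g, Ncr1 and Gzma were at or below 1.02 CPM. Cd8a and Klrb1c were at or below 2.96 CPM. Cd4 (7.81 to 22.7 CPM), Lck (60.5 to 133) and Nkg7 (146 to 341) were present in every library. The B cell marker Cd79a was at 100.2, 170.4 and 187 CPM in WT and 109, 1.23 and 3.66 CPM in mutant mice, so transcripts of B lineage cells were present in some libraries. CPM are counts divided by the TMM-scaled library size and brought to a common total, and values of a group are given in the order of mice 1, 2 and 3 throughout.

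As background, a cell that senses foreign or misplaced nucleic acid makes interferon, which binds the receptor Ifnar1 and Ifnar2 on the same or other cells. The kinases Jak1 and Tyk2 then activate STAT factors, which join Irf9 and bind a short element, the interferon-stimulated response element, in the promoters of the induced genes. In blood stem cells some of these genes are expressed without infection, and acute interferon is known to drive resting stem cells into division. The promoters of the 6 described members with the motif and the smallest unadjusted p, and that of Dtx3l, are shown first, because this element is the sequence feature that many members are known to share. Each is the RefSeq window on GRCm38.p6, which shares its coordinates with mm10, from 250 bases before to 50 bases after the annotated start, written 5′ to 3′ on the strand of the gene. Capitals mark each match, on either strand, to the core of the element, searched as GAAA, any 2 bases and GAAA again, and overlapping matches form 1 longer run.

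Ifit3b: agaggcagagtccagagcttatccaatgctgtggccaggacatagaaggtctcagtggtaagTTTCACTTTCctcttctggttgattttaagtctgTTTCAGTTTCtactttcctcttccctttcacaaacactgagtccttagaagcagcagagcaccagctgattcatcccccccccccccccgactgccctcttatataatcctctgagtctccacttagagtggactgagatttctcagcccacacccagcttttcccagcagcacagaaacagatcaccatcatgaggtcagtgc
Ifit3: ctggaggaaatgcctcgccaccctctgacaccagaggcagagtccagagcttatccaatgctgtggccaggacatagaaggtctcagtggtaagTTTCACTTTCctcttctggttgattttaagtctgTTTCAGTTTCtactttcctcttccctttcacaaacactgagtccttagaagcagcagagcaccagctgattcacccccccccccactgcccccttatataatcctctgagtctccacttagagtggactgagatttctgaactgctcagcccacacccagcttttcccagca
Oas1a: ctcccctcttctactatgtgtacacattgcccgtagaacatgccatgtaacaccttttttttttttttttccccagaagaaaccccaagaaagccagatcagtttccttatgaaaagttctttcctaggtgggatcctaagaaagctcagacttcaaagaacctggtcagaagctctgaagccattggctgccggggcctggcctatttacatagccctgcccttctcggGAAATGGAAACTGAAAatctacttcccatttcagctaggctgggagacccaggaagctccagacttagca
Ddx60: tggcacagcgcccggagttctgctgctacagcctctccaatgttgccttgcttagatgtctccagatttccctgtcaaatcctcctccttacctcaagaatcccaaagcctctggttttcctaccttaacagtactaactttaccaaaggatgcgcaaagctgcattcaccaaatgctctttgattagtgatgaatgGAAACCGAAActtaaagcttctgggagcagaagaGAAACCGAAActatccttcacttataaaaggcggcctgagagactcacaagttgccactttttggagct
Isg15: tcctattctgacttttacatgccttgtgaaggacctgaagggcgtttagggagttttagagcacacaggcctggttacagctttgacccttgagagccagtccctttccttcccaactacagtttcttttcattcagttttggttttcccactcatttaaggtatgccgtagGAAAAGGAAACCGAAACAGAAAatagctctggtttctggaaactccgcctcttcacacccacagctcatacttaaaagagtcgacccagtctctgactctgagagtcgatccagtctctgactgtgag
Cxcl10: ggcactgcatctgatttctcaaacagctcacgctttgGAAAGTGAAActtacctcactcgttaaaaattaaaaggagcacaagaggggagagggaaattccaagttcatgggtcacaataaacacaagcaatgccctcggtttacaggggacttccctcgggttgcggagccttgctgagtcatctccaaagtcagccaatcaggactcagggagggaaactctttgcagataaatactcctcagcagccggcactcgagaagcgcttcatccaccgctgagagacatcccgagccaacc
Dtx3l: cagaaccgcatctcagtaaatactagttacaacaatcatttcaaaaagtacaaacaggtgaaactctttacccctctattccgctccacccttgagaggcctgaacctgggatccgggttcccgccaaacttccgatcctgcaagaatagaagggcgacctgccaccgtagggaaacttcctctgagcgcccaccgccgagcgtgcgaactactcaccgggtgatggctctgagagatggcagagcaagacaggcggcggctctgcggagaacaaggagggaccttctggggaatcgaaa

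These windows lie at chr19:34607707-34608006 (Ifit3b), chr19:34583279-34583578 (Ifit3) and chr8:61927837-61928136 (Ddx60) on the plus strand and at chr5:120907476-120907775 (Oas1a), chr4:156200769-156201068 (Isg15), chr5:92348840-92349139 (Cxcl10) and chr16:35938978-35939277 (Dtx3l) on the minus strand. The windows of Ifit3 and Ifit3b share an unbroken run of 169 bases that holds both matches. Isg15 has 3 overlapping matches that begin 78, 72 and 66 bases before its start, and Oas1a has 2 that overlap. The Dtx3l window, shown for contrast, holds no match. A promoter entry was found for 35 of the 45 members, and 17 of these 35 (48.6%) hold the motif, against 1079 of all 27025 genes with an entry (3.99%). The members without an entry were Oas2, Mx1, Mx2, Usp18, Ifi27l2a, Rtp4, Zbp1, Dhx58, Parp9 and Parp14. Of the 28 matches, counting each window of a gene, 24 began before the start and 19 within 150 bases of it. The median log2 fold change, mutant over WT, was -1.19 in the 17 members with the motif (-6.76 to -0.37) and -0.53 in the 18 without it (-2.14 to -0.01), given as a description with no test. The 10 members without an entry are in neither group. Their values ran from -2.14 (Oas2) to -0.64 (Parp9), so the gap between the groups could change with them.

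With TMM scaling and all 6 mice, the 45 antiviral genes each had a lower fitted level in LSK cells of the mutant mice than in WT mice, against 44 of 45 under RLE scaling, in DESeq2 and without mutant mouse 1, 43 of 44 without WT mouse 1 or WT mouse 3, 43 of 45 in female mice and 42 of 45 with a term for sex. The median log2 fold change was -1.01, which is close to a halving of the level, against 0.00 over all genes tested. For 28 members each mutant mouse had less than any WT mouse (7.67% of all genes), and for 0 members each had more (6.87% of all genes). By group, the median was -2.41 for the 4 IFIT genes, -1.56 for the 2 Mx genes and -1.36 for the 6 OAS genes. It was -0.67 for the 4 PARP and Dtx3l genes and -0.50 for the 2 TRIM genes. The value nearest 0 was that of Lgals3bp, a secreted galectin ligand, at -0.01 ± 0.19 (SE).

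No member passed the test on its own. By edgeR's quasi-likelihood test 0 of 45 were lower and 0 higher at an adjusted p under 0.05, the background being 0% of the 12713 genes in each direction, and the smallest adjusted p of a member was 0.312. At an unadjusted p under 0.05, 21 members were lower and 0 higher, where the background is 3.13% of all genes lower and 3.42% higher. With a term for sex, which went partly with genotype, 1 member was lower at that threshold, against 1.27% of all genes in that fit. A negative log2 fold change was found for 45 members and for 49.8% of all genes, and a value below -1 for 23 members and 4.66% of all genes. DESeq2 called 4 members lower over all genes, namely Ifit3b, Zbp1, Ifi27l2a and Ifit3, and 0 higher, with a background of 0.543% of genes lower and 0.81% higher, while limma-voom called 0. With 3 mice a side, the smallest p that an exact permutation test allows is 0.10. Bulk RNA cannot tell fewer cells with an interferon response from less RNA per cell, and nothing in the labels says more of the replicates than that they were separate mice.

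**Figure D1:**
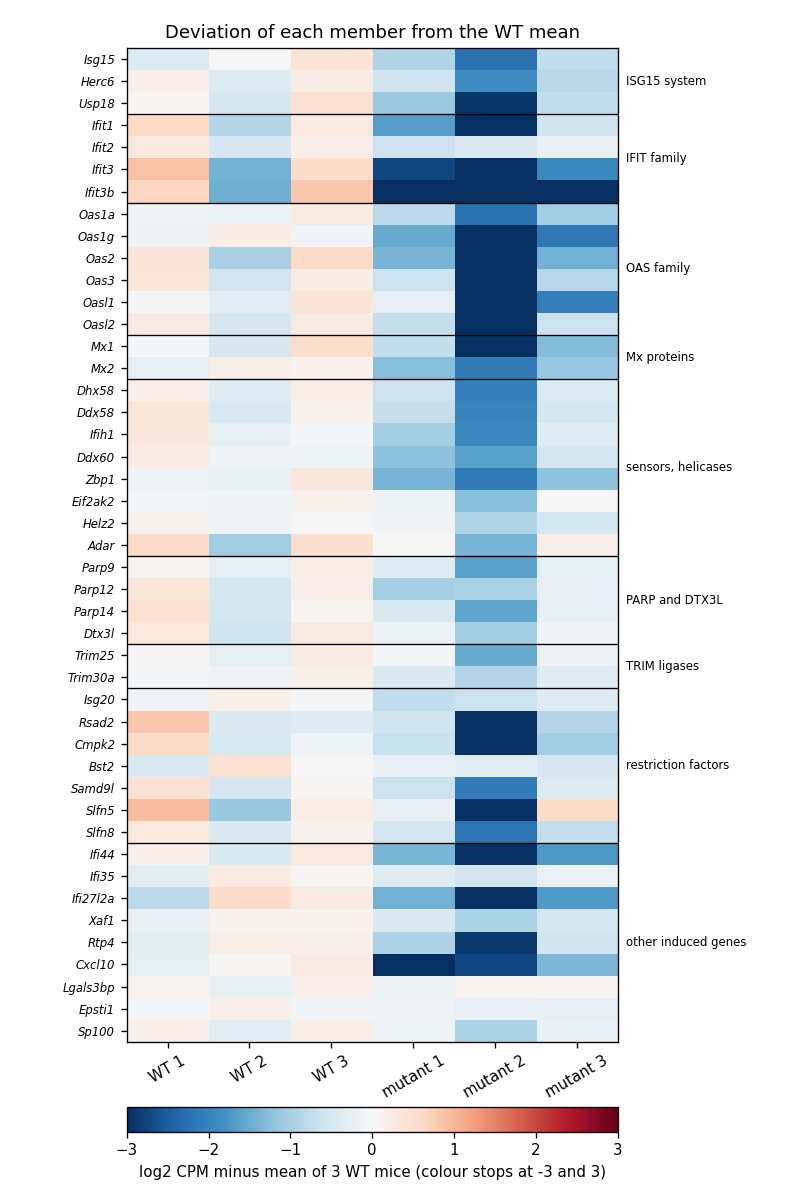
Deviation of log2 CPM (prior count 1) from the mean of the 3 WT mice, for the 45 members (rows, grouped by role) in each of the 6 mice (columns); blue is below the WT mean and the colour stops at -3 and 3. The column of mutant mouse 2 is the deepest, with a median of -2.10, and the columns of mutant mice 1 and 3 are mostly pale blue.

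The mutant mice differed among themselves in how far below WT they lay. Relative to the WT mean, the median over the 45 members was -0.65 log2 units in mutant mouse 1, -2.10 in mutant mouse 2 and -0.54 in mutant mouse 3. For WT mice 1, 2 and 3 it was 0.15, -0.33 and 0.19. Mutant mice 1, 2 and 3 were below the WT mean in 45, 44 and 41 members. Over all genes tested their median deviations were 0.02, -0.03 and 0.02. Below all 3 WT mice lay mutant mouse 1 in 35 members (24% of all genes), mutant mouse 2 in 42 (36%) and mutant mouse 3 in 31 (22.2%). Mutant mouse 2 was the lowest of the 6 mice in 37 members, against 30% of all genes. No mutant mouse was the highest in any member, against 11.5%, 28.8% and 12.4% of all genes for mutant mice 1, 2 and 3. WT mouse 2 was the lowest WT mouse in 33 members, a count for which the share over all genes was not taken.

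The difference was also present without the library that stood apart. Without mutant mouse 2 the median was -0.67 over 45 members, 45 of 45 were negative (51.8% of all genes), and 22 were lower at an unadjusted p under 0.05 (3.03% of all genes). Mutant mice 1 and 3 alone lay below the 3 WT mice for the same 28 members, against 11.6% of all genes. That count could not be less than 28, since these members had all 3 mutant mice below WT. Members with 3 or fewer counts in mutant mouse 2 were Ifit1, Oas1g, Ifit3b, Oas2, Mx1, Slfn5, Ifi44 and Ifit3, while no member was so low in a WT library. In that library 77 of 11157 genes with at least 20 counts in each of the other 5 libraries had 3 or fewer counts, and 6 of the 77 were members. The other libraries had between 0 and 5 such genes, none of them a member. A library with 0 counts of a gene allows up to 3 counts, which is 0.194 CPM in mutant mouse 2, and this limit covers counting error only.

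The ISG15 system attaches a ubiquitin-like protein to other proteins. Isg15, the modifier itself, was at 17.2, 22.9 and 29.7 CPM in WT and 12.1, 4.77 and 13.6 CPM in mutant mice, with a log2 fold change of -1.19 ± 0.42 (SE) and an edgeR adjusted p of 0.645. Herc6, the ligase that attaches it in mice, was at 45.3, 29.7 and 46.0 CPM in WT and 25.9, 10.8 and 22.2 CPM in mutant mice, with -1.03 ± 0.35 (SE). Usp18, which removes it and also damps the interferon receptor, was at 38.8, 26.6 and 51.3 CPM in WT and 17.3, 4.90 and 22.3 CPM in mutant mice, with -1.39 ± 0.51 (SE). In all 3 genes every mutant mouse lay below every WT mouse, and mutant mouse 2 was the lowest. The mean CPM of Isg15 in WT mice was 2.29 times that of the mutant mice, and 1.81 times that of mutant mice 1 and 3.

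The IFIT proteins bind viral RNA that lacks the cap structure of the host. Ifit3b had the lowest unadjusted p of all members: it had 74, 12 and 83 counts in WT mice and 0, 0 and 1 in mutant mice. That is a ratio of mutant to WT of 0.00642 by summed counts (95% exact counting interval 0.000162 to 0.0363), and DESeq2 gave it an adjusted p of 0.000762. Ifit3 was at 11.1, 2.21 and 8.90 CPM in WT and 0.861, 0.194 and 1.55 CPM in mutant mice, a log2 fold change of -3.07 ± 0.84 (SE) with an edgeR adjusted p of 0.489 and a DESeq2 adjusted p of 0.0176. In both genes every mutant mouse was below every WT mouse, and WT mouse 2 was also far below the other WT mice. Ifit1, the cap-sensing member, was at 40.2, 14.4 and 32.9 CPM in WT and 8.51, 0 and 17.7 CPM in mutant mice, where mutant mouse 3 lay above WT mouse 2. Its log2 fold change was -1.74 ± 1.14 (SE), and -1.16 without mutant mouse 2. Ifit2 was at 51.1, 29.5 and 47.8 CPM in WT and 27.0, 30.8 and 36.4 CPM in mutant mice and differed by -0.45 ± 0.26 (SE), with overlap between the groups. Unlike Ifit1 and Ifit3, Ifit2 was not lowest in mutant mouse 2, and Ifit3b was at 0 in both mutant mouse 1 and mutant mouse 2. Ifit3 and Ifit3b are near-identical copies: 51.2% of the distinct 50-base words of Ifit3 transcripts in GENCODE M21 also occur in another gene, mostly Ifit3b, so the split of reads between the pair is uncertain.

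The OAS enzymes make short oligoadenylates that activate the nuclease RNase L. Oas1a was at 44.6, 42.8 and 57.8 CPM in WT and 27.9, 10.1 and 23.2 CPM in mutant mice, with -1.25 ± 0.37 (SE) and an edgeR adjusted p of 0.516. Oas1g was at 5.43, 7.09 and 5.74 CPM in WT and 2.10, 0 and 1.33 CPM in mutant mice, with -2.39 ± 1.01 (SE), and Oas2 at 39.2, 15.2 and 45.1 CPM in WT and 11.3, 0.0645 and 11.1 CPM in mutant mice, with -2.14 ± 1.05 (SE). The groups did not overlap in any of these genes, and Oas1g had 0 counts and Oas2 1 count in mutant mouse 2. Oas1a and Oas1g share 57.6% and 45.7% of their 50-base words with other transcripts, mostly with each other, and are uncertain for the same reason. Oas3, Oasl1 and Oasl2 had log2 fold changes of -1.31, -1.41 and -1.27, which were -0.80, -0.93 and -0.72 without mutant mouse 2. Oas3 and Oasl2 did not overlap between groups, whereas in Oasl1 mutant mouse 1, at 19.7 CPM, lay above WT mouse 2, at 19.1 CPM.

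**Figure D2:**
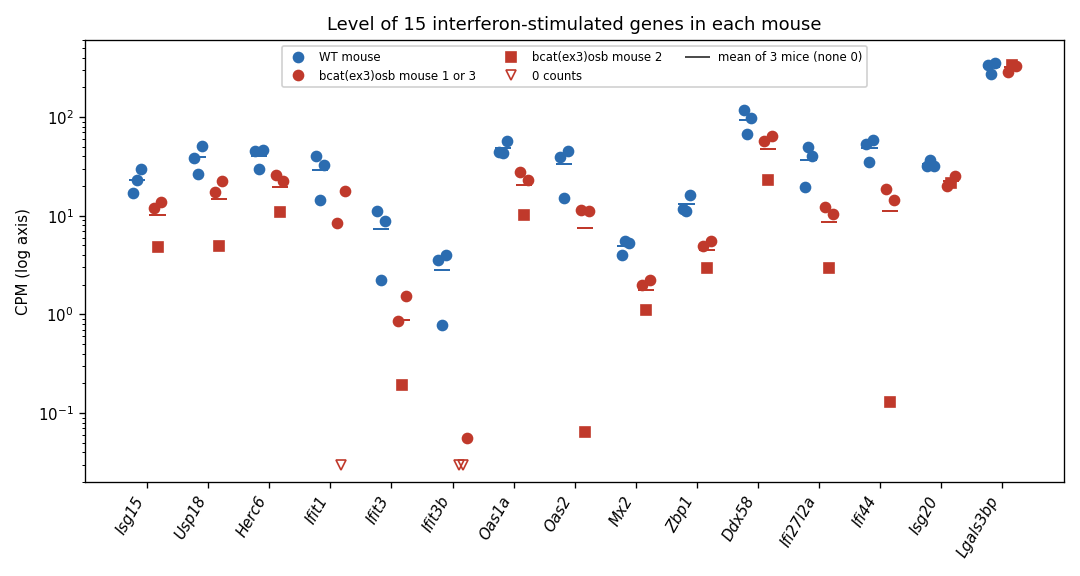
CPM on a log axis for 15 members in each mouse: blue circles are WT mice, red circles mutant mice 1 and 3, red squares mutant mouse 2, open triangles libraries with 0 counts, and short lines the mean of a group with no 0. For Isg15 the mutant mice sit between 4.77 and 13.6 CPM and the WT mice between 17.2 and 29.7 CPM, while for Lgals3bp the groups overlap.

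Mx proteins are dynamin-like and block incoming viral particles. Mx1 was at 5.87, 4.36 and 8.85 CPM in WT and 3.61, 0.0645 and 2.44 CPM in mutant mice, with -1.63 ± 0.94 (SE), and -1.07 without mutant mouse 2. Mx2 was at 4.03, 5.53 and 5.30 CPM in WT and 1.99, 1.10 and 2.22 CPM in mutant mice, with -1.48 ± 0.47 (SE). Both were low in every library, and every mutant value was below every WT value.

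The 8 sensors of nucleic acid and related helicases had a median of -0.94, and 5 of them did not overlap between the groups. Zbp1, which senses Z-form nucleic acid and can trigger cell death, was at 11.7, 11.3 and 16.4 CPM in WT and 4.90, 2.97 and 5.54 CPM in mutant mice. Its log2 fold change was -1.55 ± 0.37 (SE), with an edgeR adjusted p of 0.404 and a DESeq2 adjusted p of 0.00852. Ddx60, a helicase that aids RNA sensing, was at 44.2, 34.5 and 33.8 CPM in WT and 15.9, 12.1 and 26.1 CPM in mutant mice, with -1.05 ± 0.31 (SE). Ddx58, the sensor RIG-I, was at 117, 66.8 and 98.4 CPM in WT and 56.7, 22.8 and 63.6 CPM in mutant mice, with -0.98 ± 0.39 (SE), and -0.65 without mutant mouse 2. The groups did not overlap in these 3 genes, nor in Ifih1 (the sensor MDA5) and Dhx58 (their relative LGP2), at -0.98 and -0.90. Eif2ak2, the kinase PKR that stops translation, Helz2 and Adar, which edits double-stranded RNA, overlapped between the groups. Their log2 fold changes were -0.37, -0.47 and -0.43, and those of Eif2ak2 and Adar were -0.07 and -0.09 without mutant mouse 2. The 16.8% of Adar exon bases that overlap Chrnb2 on the other strand make its count uncertain, since the sources used here do not state the strand setting of the counting.

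The mono-ADP-ribosyltransferase genes of the PARP group and their partner Dtx3l overlapped between the groups throughout. Parp12 was at 75.0, 40.4 and 64.0 CPM in WT and 29.0, 29.8 and 49.8 CPM in mutant mice, with -0.72 ± 0.31 (SE). Parp9, which pairs with the ubiquitin ligase Dtx3l, was at 88.3, 68.3 and 94.5 CPM in WT and 64.6, 27.3 and 68.9 CPM in mutant mice, with -0.64 ± 0.34 (SE), and -0.33 without mutant mouse 2. Parp14 was at 59.8, 30.6 and 45.5 CPM in WT and 32.5, 14.5 and 36.9 CPM in mutant mice, with -0.70 ± 0.39 (SE), and -0.39 without that mouse. In Parp9 and Parp12 mutant mice 1 and 2 lay below all WT mice, and in Parp14 only mutant mouse 2 did. Dtx3l had -0.42, and -0.17 without mutant mouse 2. Its exons overlap those of Parp9 on the other strand by 458 bases.

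Of the TRIM ligases, Trim30a, which damps inflammatory signalling, was at 79.5, 75.9 and 90.8 CPM in WT and 60.1, 44.3 and 63.4 CPM in mutant mice, with -0.55 ± 0.21 (SE). All 3 mutant mice lay below all 3 WT mice. Trim25, which ubiquitinates RIG-I, was at 104, 82.8 and 118 CPM in WT and 97.2, 35.2 and 90.3 CPM in mutant mice, with -0.45 ± 0.37 (SE), and -0.12 without mutant mouse 2. There, mutant mice 1 and 3 lay within the WT range.

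Among the factors that block viral replication directly, Isg20, an RNA exonuclease, was at 31.7, 36.9 and 32.1 CPM in WT and 19.9, 21.3 and 25.4 CPM in mutant mice, with -0.60 ± 0.21 (SE) and an edgeR adjusted p of 0.646. The groups did not overlap, and mutant mouse 2 was not the lowest. Cmpk2, a mitochondrial nucleotide kinase, was at 62.8, 30.9 and 38.9 CPM in WT and 26.6, 5.35 and 20.7 CPM in mutant mice, with -1.33 ± 0.54 (SE). Slfn8, of the schlafen family, was at 94.7, 56.6 and 83.8 CPM in WT and 53.0, 16.6 and 46.8 CPM in mutant mice, with -1.01 ± 0.42 (SE), and -0.65 without mutant mouse 2. In both genes no mutant mouse reached the lowest WT mouse. Rsad2, the enzyme viperin that makes a chain-terminating nucleotide, had -1.32 and Samd9l -0.93, which were -0.86 and -0.57 without mutant mouse 2. Bst2, the tether that holds budding virus at the cell surface, had -0.40, with 91.5, 85.8 and 76.4 CPM in mutant mice, and WT mouse 1, at 78.5 CPM, among them. Slfn5 had 1 count in mutant mouse 2 and 192 and 320 counts in mutant mice 1 and 3, within the WT range of 84 to 472. Its value of -0.58 was -0.01 without mutant mouse 2, and 0.33 with sex as a covariate.

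Of the other induced genes, Ifi27l2a, a small protein of mitochondria and the nuclear envelope, was at 19.4, 49.2 and 40.3 CPM in WT and 12.4, 2.97 and 10.4 CPM in mutant mice. Its log2 fold change was -2.08 ± 0.55 (SE), with an edgeR adjusted p of 0.483 and a DESeq2 adjusted p of 0.0164. Xaf1, which promotes apoptosis, was at 37.5, 47.0 and 46.3 CPM in WT and 32.0, 22.5 and 30.6 CPM in mutant mice, with -0.62 ± 0.22 (SE). Cxcl10, a chemokine that draws T cells, was at 3.40, 4.29 and 4.96 CPM in WT and 0.0538, 0.581 and 1.61 CPM in mutant mice, with -2.48 ± 0.92 (SE). The groups did not overlap in these 3 genes, and Cxcl10 was lowest in mutant mouse 1, with 1 count. Rtp4, a chaperone of surface receptors, had -1.20, and -0.77 without mutant mouse 2, and Ifi44 had -2.14. Both lay below WT in every mutant mouse, as did Epsti1, with -0.20, whose highest mutant and lowest WT values both round to 61.6 CPM. Ifi35, Sp100, a nuclear body protein, and Lgals3bp overlapped, at -0.38, -0.40 and -0.01. Lgals3bp was at 337, 273 and 352 CPM in WT and 286, 339 and 332 CPM in mutant mice, with mutant mouse 2 within the WT range.

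**Figure D3:**
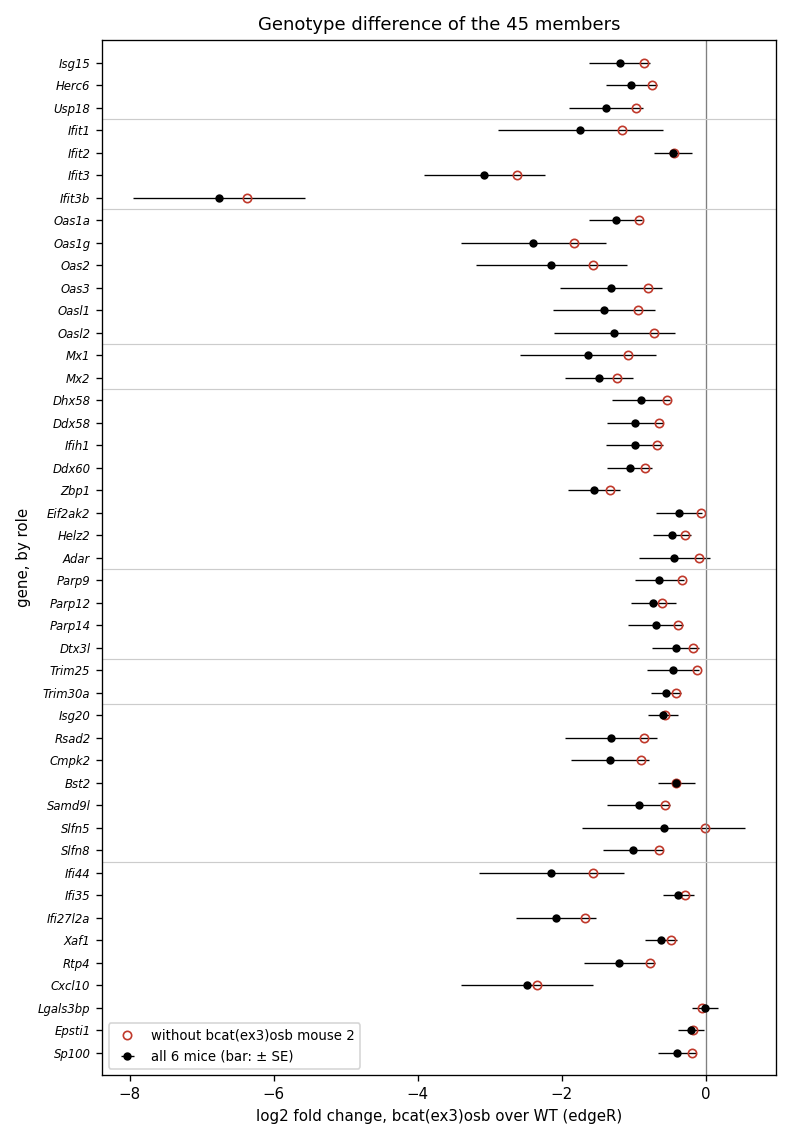
Log2 fold change of mutant over WT mice by edgeR for the 45 members, grouped by role; black points with bars give the value ± SE from all 6 mice and open red circles the value without mutant mouse 2. All 45 black points lie left of 0 (with a term for sex, Slfn5, Lgals3bp and Eif2ak2 lie right of it, in female mice Slfn5 and Lgals3bp, in DESeq2 Lgals3bp, and 1 gene each under RLE scaling and without WT mouse 1, WT mouse 3 or mutant mouse 1), from -6.76 (Ifit3b) to -0.01 (Lgals3bp), and most red circles lie nearer to 0 than the black points.

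The members covered a wide range of levels per length. In FPKM, which scales counts by gene length and library total, the highest in WT mice were Lgals3bp (152 ± 23.2), Bst2 (149 ± 42.5) and Rtp4 (93.0 ± 14.2) (mean ± SD, n = 3). The first 2 did not differ beyond their spread. Ifi27l2a, at 79.9 ± 32.0 FPKM, Ifi35 and Sp100 followed, and these 3 did not differ beyond their spread either. The lowest were Mx1, Mx2 and Ifit3b, at 2.20 ± 0.812, 2.09 ± 0.295 and 1.45 ± 0.920 FPKM. In mutant mice Lgals3bp and Bst2 also came first, at 143 ± 12.9 and 107 ± 9.92 FPKM, while Ifi27l2a was at 18.4 ± 11.1 and Ifi44 at 3.83 ± 3.34, against 17.4 ± 4.75 in WT mice. The WT mice varied among themselves, with a median coefficient of variation of CPM of 25.3% over the members.

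**Figure D4:**
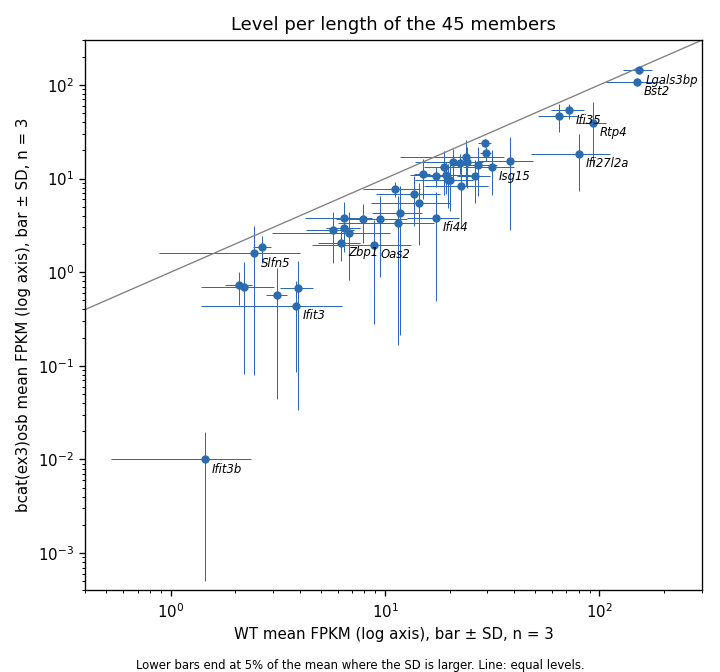
Mean FPKM of the 45 members in WT mice (x, log axis) and mutant mice (y, log axis), bars ± SD, n = 3 mice each, with the line of equal levels. All points lie below the line, with Lgals3bp close to it at the top right and Ifit3b, with 1 count over the 3 mutant libraries, far below it.

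Other genes of the pathway were divided about evenly by the sign of the log2 fold change. Of 69 other genes of interferon signalling, 45 were tested, 20 of them with a negative log2 fold change, and their median was 0.05. By edgeR 0 passed at an adjusted p under 0.05, and at an unadjusted p under 0.05 1 was lower and 6 were higher (Ifngr1, Irf5, Irf8, Unc93b1, Socs3 and Ptpn1). Over all genes, 3.13% were lower and 3.42% higher at that unadjusted threshold. DESeq2 called 0 lower and 1 higher, with a background of 0.543% of genes lower and 0.81% higher. None of the 21 interferon genes could be tested: 18 of them, Ifnb1, Ifng and the Ifna genes among these, had 0 counts in every library, and the 21 together had at most 11 counts in a library.

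Both chains of the receptor overlapped between the groups. Ifnar1 was at 145, 80.0 and 115 CPM in WT and 134, 68.4 and 113 CPM in mutant mice, with -0.11 ± 0.31 (SE), and Ifnar2 at 196, 208 and 215 CPM in WT and 259.8, 257 and 189.6 CPM in mutant mice, with 0.19 ± 0.19 (SE). Both signs turned in some settings: Ifnar1 had 0.13 without mutant mouse 2, and Ifnar2 -0.12 with sex as a covariate. Ifngr1, a chain of the interferon-γ receptor, was at 196, 203 and 179 CPM in WT and 232, 315 and 256 CPM in mutant mice, with 0.47 ± 0.19 (SE), and every mutant mouse was above every WT mouse. Ifngr2, its partner, overlapped, with 0.29 ± 0.21 (SE).

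Irf7 and Irf9, transcription factors of the response that interferon also induces, had negative values. Irf7, which amplifies interferon production, was at 92.6, 72.7 and 111 CPM in WT and 55.1, 15.2 and 61.2 CPM in mutant mice, with -1.07 ± 0.46 (SE). Irf9, the DNA-binding partner of the STAT factors, was at 172, 148 and 192 CPM in WT and 143, 80.8 and 133 CPM in mutant mice, with -0.52 ± 0.25 (SE). In both genes every mutant mouse lay below every WT mouse. Stat2 overlapped, with -0.23 ± 0.41 (SE), and had 0.12 without mutant mouse 2. Irf8, a factor of the monocyte lineage, was at 92.4, 144 and 164 CPM in WT and 536, 188 and 266 CPM in mutant mice, with 1.31 ± 0.40 (SE), and every mutant mouse lay above every WT mouse. Irf5 was also above WT in every mutant mouse, with 0.49 ± 0.21 (SE).

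Of the genes of sensing, Unc93b1, which carries the nucleic acid sensing Toll-like receptors to endosomes, was at 223, 216 and 245 CPM in WT and 349, 407 and 326 CPM in mutant mice, with 0.66 ± 0.18 (SE), and DESeq2 called it higher (adjusted p of 0.0326). Ikbke, a kinase that is itself induced, had -0.61 ± 0.42 (SE), and Ticam1, an adaptor of Toll-like receptor signalling, had 0.57 ± 0.41 (SE), both with overlap. Of the negative regulators, Socs3 was at 21.6, 14.1 and 36.2 CPM in WT and 54.6, 35.4 and 56.0 CPM in mutant mice, with 1.02 ± 0.36 (SE), and Ptpn1, a phosphatase of the Janus kinases, had 0.46 ± 0.17 (SE). Ptpn1 was above WT in every mutant mouse, and in Socs3 mutant mouse 2 overlapped with WT mouse 3. Nlrc5, the interferon-induced activator of MHC class I genes, was below WT in every mutant mouse, with -1.18 ± 0.58 (SE).

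**Figure D5:**
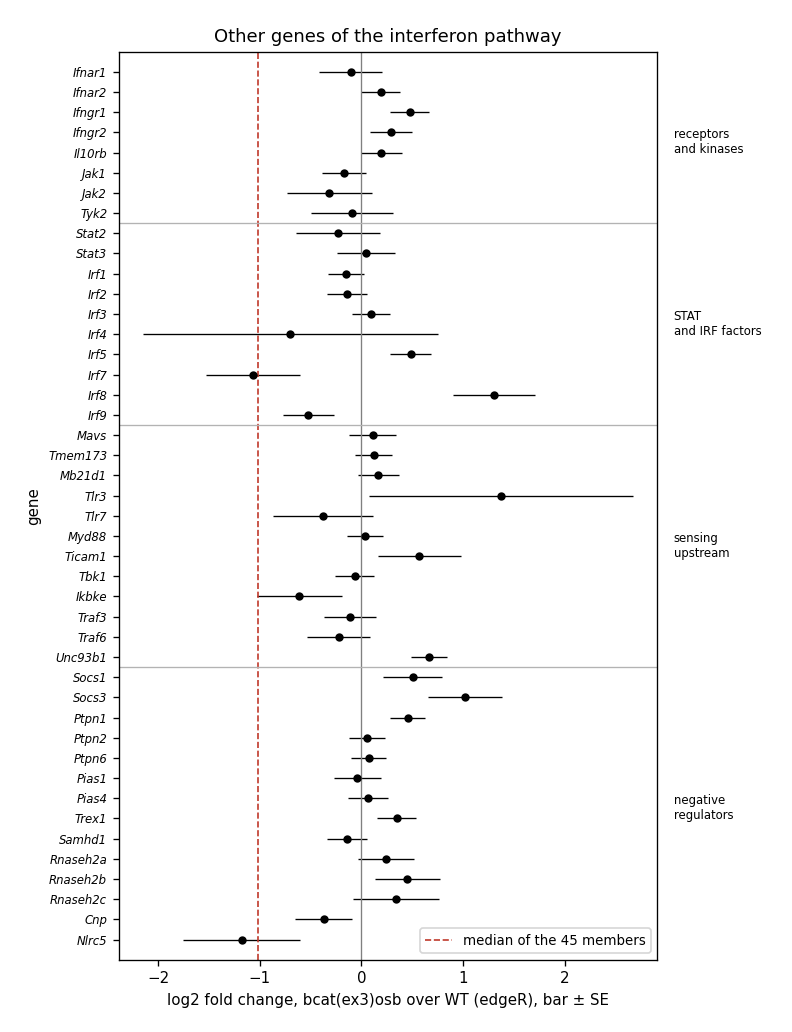
Log2 fold change ± SE of mutant over WT mice by edgeR for 44 of the 45 tested genes of the interferon pathway outside the members, by function; the dashed line marks the median of the members, -1.01. Irf7 and Nlrc5 lie near the dashed line, Irf8 lies at 1.31, and most other genes lie near 0.

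Of other measures beside the members, some separated by genotype and others overlapped between the groups. Sca-1, which the LSK gate requires, is encoded by the interferon-inducible gene Ly6a. Ly6a was at 148, 162 and 156 CPM in WT and 81.5, 65.9 and 75.7 CPM in mutant mice, with -1.06 ± 0.18 (SE) and an edgeR adjusted p of 0.312 (1.27e-05 in DESeq2), and the groups did not overlap. Kit, the other gate marker, overlapped, with -0.39 ± 0.42 (SE), and had 0.09 with sex as a covariate. Of the B cell markers, 11 of 11 had a negative log2 fold change, and their summed level was 640.0 to 1098 CPM in WT mice and 612, 101 and 81.4 CPM in mutant mice. Pax5 was at 0 in mutant mouse 2. Of 12 tested macrophage markers 10 were negative. The summed level of the 13 listed was 129 to 158 CPM in WT and 52.9 to 159.7 CPM in mutant mice. Csf1r, which is also in the monocyte list, made up 140 of the 159.7 CPM in mutant mouse 1. Of the 12 tested, 6 lay below WT in every mutant mouse and 0 above, against 7.67% and 6.87% of all genes. Cd5l was at 0 in every mutant mouse, and C1qc, Adgre1, Marco, Siglec1 and Timd4 were at 0 in mutant mouse 2. Marco, too low to be tested, was also at 0 in WT mouse 3. In mutant mouse 3, Marco (0.776 CPM), Timd4 (2.61 CPM) and Mrc1 (7.26 CPM) lay above every WT mouse. Of 6 tested markers of plasmacytoid dendritic cells, the main interferon-making blood cells, 3 were negative. Ccr9 lay below WT in every mutant mouse, with -2.33 ± 0.86 (SE), while Siglech had 1.40 ± 0.71 (SE) with overlap. The sum of the 7 listed was 285 to 387 CPM in WT and 237 to 343 CPM in mutant mice. Its largest parts were Tcf4 and Bst2, and Bst2 belongs to both this list and the members. The summed level of 6 monocyte markers was higher in mutant mice, with 65.2 to 123 CPM in WT and 216 to 438 CPM in mutant mice. Ccr2, Ly6c2 and F13a1 lay above WT in every mutant mouse. Csf1r and Cd14 overlapped, with 0.95 ± 0.57 (SE) and -0.63 ± 1.12 (SE). Fcgr1, which was low in every library, lay below WT in every mutant mouse, with -1.88 ± 1.05 (SE). For 5 megakaryocyte markers the sum was 43.1 to 51.6 CPM in WT and 59.3 to 165 CPM in mutant mice. Itga2b, with 1.75 ± 0.38 (SE) and a DESeq2 adjusted p of 0.00196, was the only one above WT in every mutant mouse. It made up 45.7 of the 59.3 CPM in mutant mouse 1, where Pf4, Gp1ba, Gp9 and Ppbp lay below every WT mouse. In mutant mice 2 and 3, Pf4, Gp1ba and Gp9 lay above every WT mouse, and Ppbp did not. The sums of the T and NK cell markers overlapped, with 287 to 448 CPM in WT and 300.2 to 432 CPM in mutant mice. Their largest parts were Nkg7 and Lck. The part of these cell types and of the Sca-1 gate in the members' difference was not tested.

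Sex went partly with genotype, since all WT mice were female and mutant mice 1 and 2 were male. With sex as a covariate the median of the members was -0.56, with 42 of 45 negative (52.1% of all genes) and 1 lower at an unadjusted p under 0.05 (1.27% of all genes). The exceptions were Slfn5 (0.33), Lgals3bp (0.05) and Eif2ak2 (0.01). In the 4 female mice alone it was -0.58, with 43 of 45 negative (53.6% of all genes) and 8 lower at an unadjusted p under 0.05 (2.61% of all genes). Both settings rest on mutant mouse 3 for the genotype difference. Gene length was another measure on which libraries differed: the members had a median length of 2975 bases, all tested genes 2809, and with each library's trend with length removed the median of the members was -0.96, with 45 of 45 negative.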

How the data were processed

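Libraries from 6 mice were compared, 3 per genotype. Per the submitters' processing notes, the authors used bcl2fastq 2.17, STAR 2.5.2b and featureCounts 1.5.0-p3 with mm10. The deposited files hold raw counts per gene, gene lengths and FPKM, and the authors' FPKM equal the count scaled by length and library total within 0.005. The sources used here do not state strand and multimapping settings.

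Genes with 10 or more counts in 3 or more libraries were tested with edgeR 4.0.16 (quasi-likelihood F test, TMM scaling, genotype as the only term, two-sided, Benjamini-Hochberg over all 12713 genes) in R 4.3.3. Alternatives were DESeq2 1.42.0, limma 3.58.1, other scalings and filters, log2(FPKM + 1) and log2(FPKM + 0.1), a length offset, sex, and each mouse left out. The promoter motif is the textbook core of the element. No libraries were duplicates. Depth limits low genes: 3 counts is the limit that a count of 0 allows.

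The members and lists were chosen with earlier results of these data known. Up to 3 members per role with the smallest unadjusted p, and up to 3 genes per pathway list, were given in every mouse, and a few genes always (Ly6a, Kit, Stat2, Irf7, Irf9, Ifnar1, Ifnar2). Ifit1, Bst2, Slfn5, Oasl1 and Lgals3bp were added after their values were seen, as were Cd79a, Cd3e and the T and NK cell markers named beside Cd3e. Some genes of these lists are not reported here by name.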

Additional observations from a re-analysis of the deposited data

How the results depend on the processing

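The median of the members stayed negative in all 19 alternatives, from -0.56 (sex covariate) to -1.25 without mutant mouse 3. Members with a negative value numbered 42 of 45 with the sex covariate, 43 of 44 without WT mouse 1 or WT mouse 3, and 43 or more elsewhere. Members lower at an unadjusted p under 0.05 numbered 21 in the reported fit (3.13% of all genes), 1 with the sex covariate (1.27%), 8 in females only (2.61%), and from 5 (without WT mouse 3, 1.55%) to 22 (without mutant mouse 2, 3.03%) with a mouse left out. By adjusted p, edgeR called 0 members in each of its settings, whereas DESeq2 called 4 members lower, 69 genes lower and 103 higher in all, and 1 other pathway gene higher. Over all genes, with a mouse left out, edgeR called 0 to 13 lower (13 without mutant mouse 1, 2 without mutant mouse 3), and 1 higher with the length trend removed. The stricter motif, with C as the first of the 2 free bases, was in 25.7% of member promoters and 0.792% of all genes.

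With the mouse number as a replicate block, 37 members were lower at an unadjusted p under 0.05, where the share of all genes was 6.53%, 0 by adjusted p, and 5 genes higher in all. Same-numbered mice had correlated deviations of 0.10, 0.34 and 0.07, and mutant mice 1 and 3 correlated best with WT mice 3 and 1, so the numbers were not taken as pairs.

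Some signs reversed. With the sex covariate and in females only, the log2 fold change of Kit was 0.0895 and 0.0802, of Stat2 0.16 and 0.15, of Ifnar2 -0.12 and -0.13, and of Ifngr2 -0.0376 and -0.0489. With a mouse left out, Stat2 ranged from -0.47 (without mutant mouse 3) to 0.12 (without mutant mouse 2), and Ifnar1 from -0.32 (without mutant mouse 1) to 0.13 (without mutant mouse 2), with 0.10 without WT mouse 1. The cause was not tested.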

Other observations

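Many of the members lie side by side in the genome, and their values were close in some groups of neighbours and apart in others. By RefSeq gene positions on GRCm38, 19 of the 45 members fall into 7 groups of members less than 200000 bases apart. Ifit2, Ifit3, Ifit3b and Ifit1 lie within chr19:34550550-34650009. There, Ifit2 had a log2 fold change of -0.45, and its neighbours Ifit3, Ifit3b and Ifit1 had -3.07, -6.76 and -1.74. On chromosome 11, Slfn5 and Slfn8 lie within 69462 bases of each other and had -0.58 and -1.01, and without mutant mouse 2 -0.01 and -0.65. On chromosome 12, Rsad2 and Cmpk2 lie within 37095 bases and had -1.32 and -1.33. Mx1 and Mx2 had -1.63 and -1.48, and Oasl1 and Oasl2 -1.41 and -1.27. Parp14, Dtx3l and Parp9 had -0.70, -0.42 and -0.64, and Oas2, Oas3, Oas1g and Oas1a had -2.14, -1.31, -2.39 and -1.25. No difference between neighbours was tested.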
